A study of Mus musculus with 7 samples.

Results

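Described here are 4 stretches of the mouse genome that carry many summits of the transcription factor IRF4 in regulatory T (Treg) cells, named for the genes Rbpj, Hif1a, Evl and Bcl2l11. In mm9 coordinates, 1-based, the Rbpj window ran on chromosome 5 from 53.7 to 54.1 Mb and included sequence upstream of the gene. The Hif1a and Evl windows lay on chromosome 12, from 74.9 to 75.1 Mb and from 109.75 to 109.97 Mb. The Bcl2l11 window ran on chromosome 2 from 127.9 to 128.3 Mb and included sequence downstream of the gene. The windows were chosen by their many IRF4 summits in these same lists, so their summit counts, spacing and scores are given as a description and without a test. They held 79 of the 10739 summits of the series, which were 44 of 5630 in the wild-type (WT) IRF4 list, 35 of 4312 in the p65KO IRF4 list and 0 of 797 in the p65 list.

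All cells were splenic Treg cells of C57BL/6 background, taken for chromatin immunoprecipitation and sequencing. IRF4 was precipitated from WT cells (3 samples) and from cells of the p65KO genotype, which lack RelA (2 samples), in both cases after 48 h with anti-CD3 and anti-CD28. RelA, also called p65, was precipitated from WT cells (2 samples) after 30 min with PMA and ionomycin, so its list describes another stimulation. How RelA was deleted, and in which other cells, is not stated in the labels, and no expression values were at hand with which to check the cell type. The authors deposited 1 list of peak summits per group. Values per sample are therefore unknown, no value below has a replicate error, and the summits of a locus are not replicates of a condition. Each summit carries the authors' peak score, a −log10 significance value that grows with read depth as well as with enrichment, and read depth is unknown.

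IRF4 is induced by antigen receptor signalling and is required for effector differentiation of Treg cells. It binds weakly alone and is known to occupy DNA together with partner factors, in T cells above all with the AP-1 factors BATF and JUN. RelA is the main activating subunit of canonical NF-κB, which is itself one of the inducers of the Irf4 gene. The 4 named genes have unlike roles. Rbpj encodes the DNA-binding protein that turns Notch signals into transcription and that acts as a repressor when no Notch signal is present. Hif1a encodes the oxygen-regulated subunit of the hypoxia-inducible factor, a regulator of glycolysis. Evl encodes an actin regulator of the Ena/VASP family, which acts in cell shape and migration. Bcl2l11 encodes BIM, a BH3-only protein that triggers the mitochondrial path of apoptosis and limits lymphocyte survival.

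Neither the mm9 genome nor its gene models were used, so no summit could be assigned to an exon, intron, promoter or intergenic stretch, and no sequence around a summit was read. That each named gene lies in its window was not checked either. The names of neighbouring genes come from a RefSeq gene table of another build, GRCm38.p6, in which all 4 genes were found. In that table Rbpj lies between the protein-coding genes Smim20 and Cckar, Hif1a between Prkch and Snapc1, and Evl between Eml1 and Degs2. The microRNA gene Mir342 lies inside Evl. After Bcl2l11 the next gene with a name of its own is Morrbid, a long non-coding RNA known to regulate Bcl2l11 in short-lived myeloid cells.

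Rbpj had the densest set and the highest single score. Its window held 17 WT and 15 p65KO IRF4 summits, or 42.5 and 37.5 per Mb, where the whole WT list averaged 2.17 per Mb of placed chromosome and the p65KO list 1.68. Bcl2l11 followed with 15 and 14 summits, Hif1a with 7 and 5, and Evl with 5 and 1. When the placed chromosomes were divided into fixed tiles of each window's width, 3 of 6570 tiles held at least as many WT summits as the Rbpj window and 4 of 6570 as many as Bcl2l11. For Hif1a the number was 32 of 13126 tiles and for Evl 150 of 11932. Evl was thus the least crowded of the 4, although its 5 WT summits stood closest together. The borders of fixed tiles can split a group of summits, whereas the windows were chosen for holding many. The tile counts can therefore understate how common such crowding is.

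Within a window, neighbouring WT summits were a median of 8.45 kb apart, against 99.7 kb between neighbours over the placed chromosomes. Clusters were built by joining WT summits at the customary super-enhancer stitching distance and keeping groups of at least 3. Of the 44 WT summits, 27 (61.4%) lay in 5 such clusters, against 9.77% of the whole list, a difference that the choice of crowded windows brings with it. The cluster of Rbpj had 8 WT summits in 35.6 kb, and 7 of the series' 151 clusters had at least that many. Hif1a had 1 cluster of 5 in 33.5 kb and Evl 1 of 5 in 12.8 kb. Bcl2l11 had a cluster of 5 in 33.6 kb and another of 4 in 16.3 kb.

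The strength of the summits differed between the windows. The WT score had a median of 47.0 in the Bcl2l11 window (range 13.8 to 100.03), 31.2 in the Rbpj window (13.5 to 219.9), 27.1 in the Hif1a window (15.1 to 71.2) and 18.8 in the Evl window (11.4 to 44.8). The whole WT list had a median of 26.3. Above that median lay 12 of 15 summits of Bcl2l11, 10 of 17 of Rbpj, 4 of 7 of Hif1a and 2 of 5 of Evl. The highest decile of the WT list, which began at a score of 74.3, held 5 summits of Rbpj, 2 of Bcl2l11 and none of Hif1a and Evl.

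**Figure D1:**
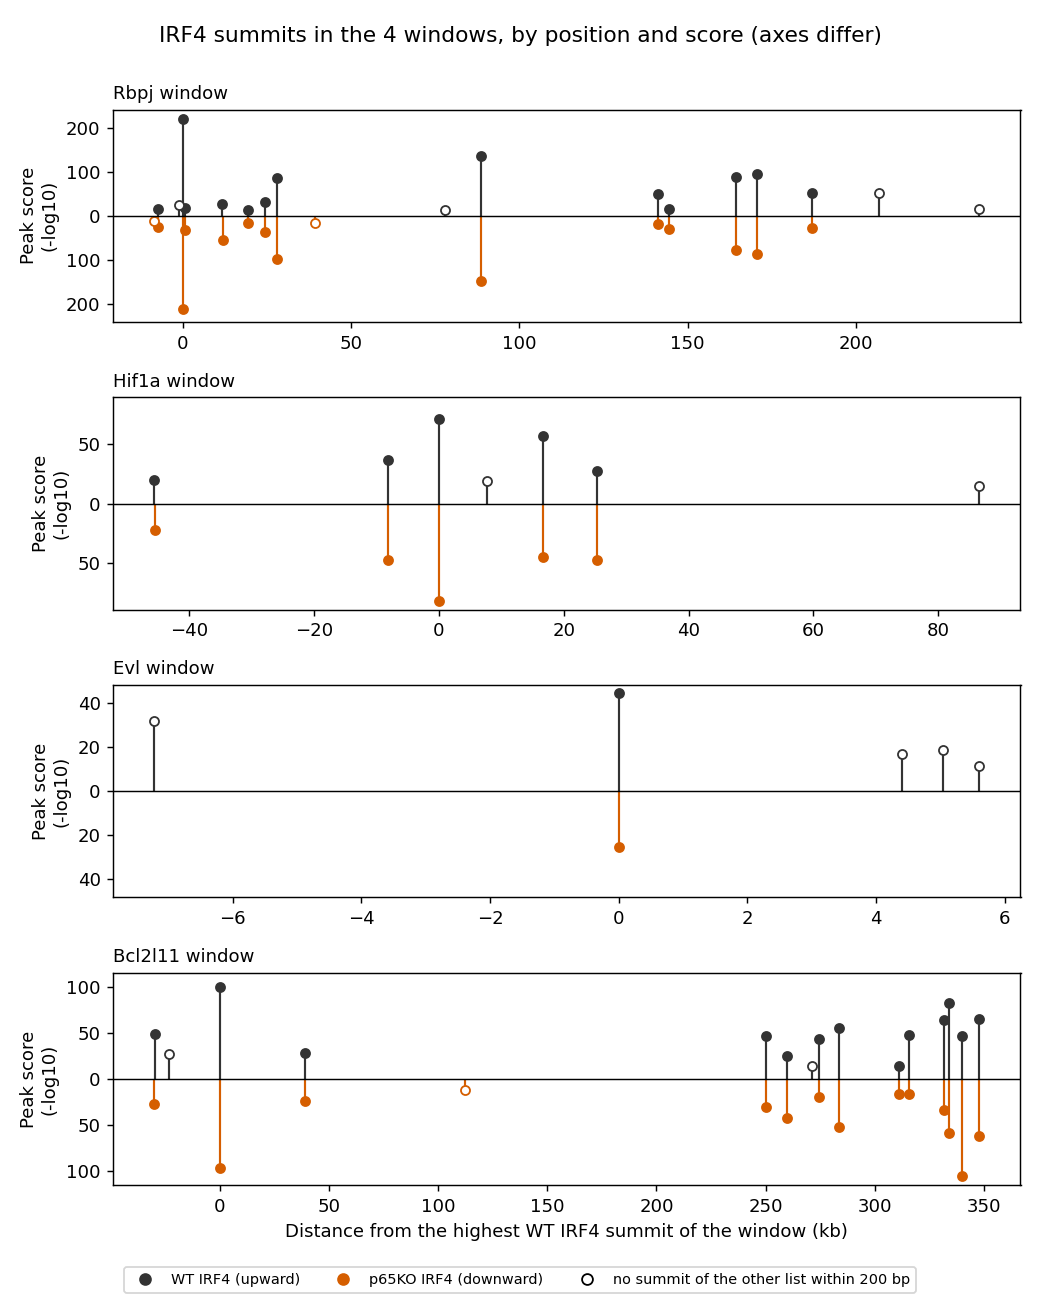
Peak score (−log10, vertical axis, WT upward and p65KO downward) of every IRF4 summit in the 4 windows against its distance in kb from the window's highest WT summit. Open circles have no summit of the other genotype within 200 bp. Most positions in the Rbpj, Hif1a and Bcl2l11 windows have a summit in both genotypes, at scores that can differ, and 4 of the 5 Evl summits are open.

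Across the 4 windows, most IRF4 summits were called at the same place with and without RelA. A partner was defined as a summit of the other genotype within 200 bp, each being the other's nearest. Of the 44 WT summits 32 (72.7%) had a p65KO partner, against 64.4% of the whole WT list. Of the 35 p65KO summits 32 (91.4%) had a WT partner, against 84.1% of the whole p65KO list. Partners are called more often at strong summits. With each of the 44 given the share of its own decile of the WT score, 31.0 partners correspond to the whole list, so the 32 lay near that background. No such background by score was computed for the p65KO summits, of which 22 of the 35 scored above their list's median.

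By window, 13 of 17 WT summits of Rbpj had a partner where the share of their score deciles gives 11.7, 5 of 7 of Hif1a where it gives 4.64 and 13 of 15 of Bcl2l11 where it gives 11.8. In the Evl window 1 of 5 had a partner where it gives 2.81. The 32 pairs sat a median of 17 bp apart, as did all 3625 pairs of the lists, and the widest offset among them was 82 bp, at Hif1a.

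**Figure D2:**
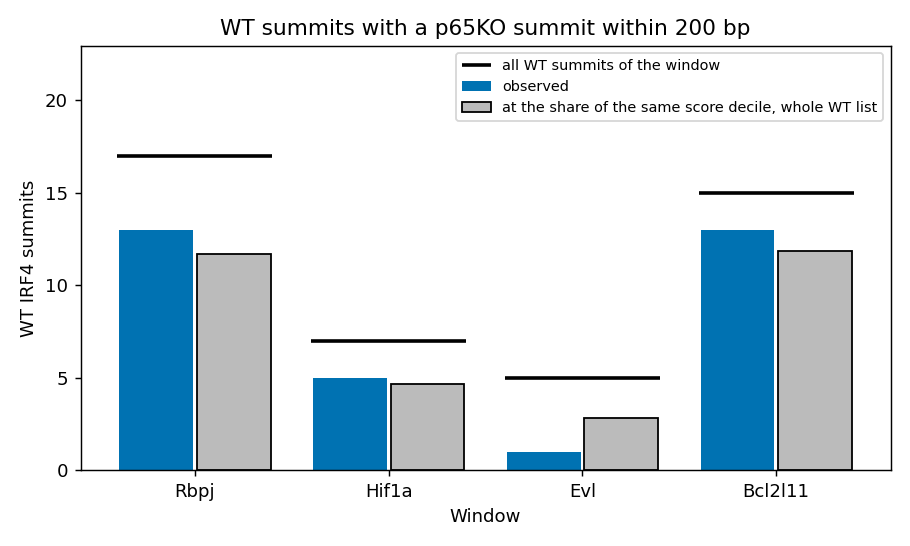
Number of WT IRF4 summits with a p65KO summit within 200 bp in each window (blue bars), the number that the whole WT list's share in the same deciles of score gives (grey bars), and all WT summits of the window (black lines). The blue bar is the lower in the Evl window alone, with 1 against 2.81.

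At paired summits the scores of the 2 genotypes differed in both directions. The p65KO score was the higher at 15 of 32 pairs (46.9%), against 42.2% of all pairs of the lists. The median difference, p65KO minus WT, was −3.19 in the windows and −2.57 over all pairs, and its direction turned to 4.62 without the Bcl2l11 window. Hif1a and Rbpj leaned to the p65KO side, with the p65KO score higher at 4 of 5 and 8 of 13 pairs and medians of 10.1 and 4.62. Bcl2l11 leaned to the WT side, with the WT score higher at 10 of 13 pairs and a median of −4.54. The windows also differed in WT score, with medians of 27.1 at Hif1a, 31.2 at Rbpj and 47.0 at Bcl2l11. The direction was not compared with that of pairs of like WT score. Whether these leanings belong to the windows or go with their scores was therefore not tested. Spearman's rho between the scores was 0.691 over the 32 pairs, 0.808 over the 13 of Rbpj and 0.626 over the 13 of Bcl2l11, and 0.746 over all pairs. These correlations describe summits that share libraries and loci.

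**Figure D3:**
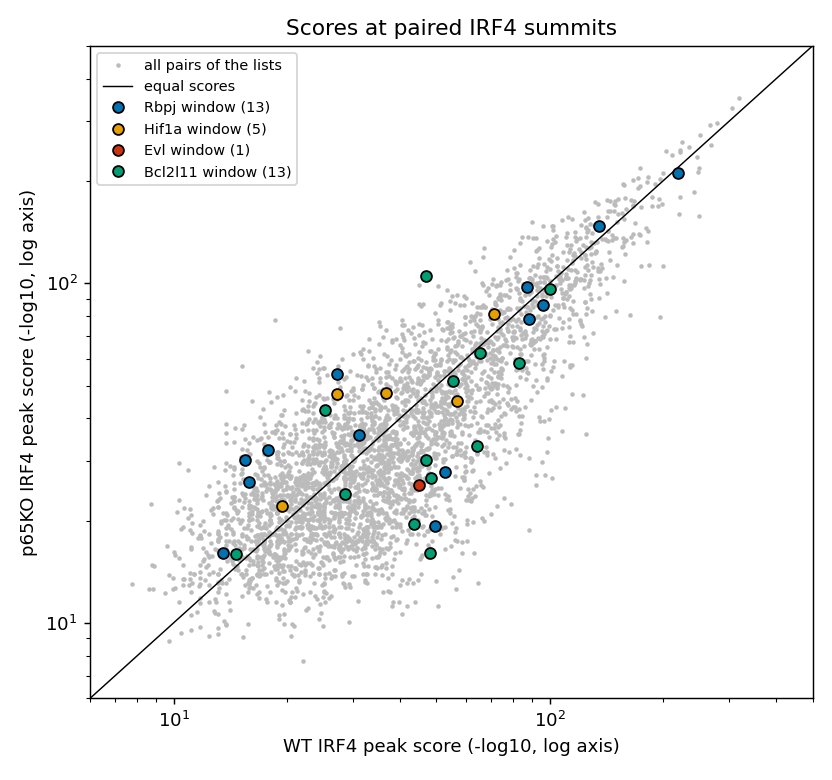
WT against p65KO IRF4 peak score (both −log10, log axes) at the 32 pairs of the windows (coloured) and at all 3625 pairs of the lists (grey), with a line of equal scores. The strongest Rbpj pairs and the Bcl2l11 pair with the highest WT score lie near the line. The Bcl2l11 pair with the next highest WT score, at 82.7 and 58.4, lies below it, and 1 Bcl2l11 pair at 47.0 and 105.1 lies far above it.

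The strongest site of all 4 windows belonged to Rbpj. The summit on chromosome 5 at 53793421 scored 219.9 and ranked 18 of the WT list, and its p65KO partner 23 bp away scored 211.3 and ranked 17. The next WT summits of Rbpj were 53882008, at 135.04 in WT against 147.9 in p65KO, and 53963925, with 95.9 and 86.5. Further strong pairs were 53957845 (88.3 in WT, 78.7 in p65KO) and 53821568 (87.0 and 97.5). These 5 strongest WT summits were also the 5 strongest of the p65KO list in the window, and their scores differed by 1.12-fold or less.

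The other 8 Rbpj pairs were weaker and more variable. In chromosomal order, 53786017 scored 15.9 in WT and 26.1 in p65KO, 53794077 scored 17.8 and 32.4, and 53805214 scored 27.1 and 54.2. The last of these had the largest difference towards p65KO of the window, 27.1 score units or 2.00-fold, and 3.45% of all pairs had one as large. The pairs 53812735 (13.5 and 16.1) and 53817838 (31.2 and 35.8) differed little. Further along, 53934521 scored 49.6 in WT and 19.3 in p65KO, the most negative difference of the window at −30.2, while 53937844, 3.32 kb away, scored 15.5 in WT and 30.2 in p65KO. The pair at 53980232 scored 52.7 in WT and 27.9 in p65KO.

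The 2 ends of the Rbpj window leaned in opposite directions. This division was chosen after the values were seen. Among the first 8 WT summits, from 53786017 to 53821568, 7 had partners, 6 of them with the higher score in p65KO (median difference 10.2). Among the last 7, from 53934521 to 54030036, 5 had partners, 4 of them with the higher score in WT (median difference −9.58). Over all pairs of the lists the p65KO score was the higher at 42.2%, and the counts at either end are small. The ends also differed in WT score. At the first end, pairs higher in p65KO scored 13.5 to 87.0 in WT, and the only pair higher in WT scored 219.9. At the last end, pairs higher in WT scored 49.6 to 95.9 in WT. The only pair higher in p65KO there scored 15.5 in WT. Whether the direction goes with position or with WT score was not tested. Among the last 7, the differences of −9.58 and −9.45 lay within the interquartile range of all pairs (−12.8 to 5.97). The same end held 2 WT summits with no p65KO summit within 1 kb. One of them, 54000209, scored 52.0 in WT, and the nearest p65KO summit was 19944 bp away. Its score lies in a decile of the WT list in which 95.6% of summits had a partner.

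The other unpartnered WT summits of Rbpj were below the list's median. They were 54030036 (score 15.8), 53871282 (13.8) and 53792253 (25.6), the last of them 1191 bp from the nearest p65KO summit. Conversely the p65KO summit 53832713, with a score of 16.8, had no WT summit within 1 kb, and 53785036 (12.3) lay 981 bp from one. All these unpartnered summits except 54000209 scored below the median of their own list.

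The Rbpj summits also stood far from others. The last WT summit before the window lay 9518 kb from its first one, and only 16 of the 5513 gaps between neighbouring WT summits were as wide. The next WT summit after the last one of the window was 386 kb away. The nearest p65KO summit outside, on chromosome 5 at 54176246 with a score of 21.0, lay 76.2 kb beyond the window's end. No other WT IRF4 summit thus lay within 200 kb of the window on either side.

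Hif1a had a compact set of middling summits. Its highest WT summit, on chromosome 12 at 74989137, scored 71.2 in WT and 81.3 in p65KO and was the highest of the window in both lists. Next came 75005771 with 56.6 in WT and 45.1 in p65KO, the only pair of the window with the higher score in WT, by 11.5 units. Below them in WT was 74980918, with 36.7 and 47.6. These 3 pairs differed by 1.30-fold or less.

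The largest difference towards p65KO at Hif1a was at 75014444, with 27.1 in WT and 47.3 in p65KO, which is 20.2 units or 1.74-fold, and 6.23% of all pairs had one as large. The weakest pair, 74943534, scored 19.5 and 22.1. A pair of weak WT summits had no p65KO summit within 1 kb, 74996871 (score 19.0) and 75075743 (15.1), and scores like theirs had partners in 42.1% and 31.6% of the WT list. All 5 p65KO summits of the window had a WT partner. Outside the window, the nearest WT summit lay 78.4 kb before its start, at 74821579 (37.0), and the nearest after its end lay 94.5 kb away, at 75194458 (13.8).

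Evl was the window with the fewest partners. Its 5 WT summits lay in 12.8 kb on chromosome 12, and 1 of them had a p65KO partner. That summit, 109879487, was the highest of the window in WT with 44.8, and scored 25.4 in p65KO at 3 bp distance, a difference of −19.4 or 1.76-fold, with 14.0% of all pairs at least as low. The summit 109872269 scored 31.9 in WT and had its nearest p65KO summit 7215 bp away. In its decile of the WT score 81.3% had partners.

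The remaining 3 Evl summits, 109883886 (17.1), 109884524 (18.8) and 109885091 (11.4), lay 638 and 567 bp apart, and the nearest p65KO summit was 4402 bp from them. For scores like theirs, 42.1%, 42.1% and 28.2% of WT summits had partners. Such a lack of partners was therefore common at these scores. The p65KO list rests on 2 samples and the WT list on 3, and whether that bears on the 4 unpartnered summits was not tested. The nearest IRF4 summits outside the window were 109634386 in WT (31.9), 115.6 kb before its start, and 109688288 in p65KO (23.0), 61.7 kb before it.

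Bcl2l11 had its summits in 2 groups. On chromosome 2 the first 4 WT summits ran from 127913738 to 127982715 and the other 11 from 128193668 to 128291546, with 211 kb between them in which only the p65KO list had a summit, 128055765 with a score of 12.1. The highest WT summit, 127943650, stood in the first group and scored 100.03 in WT and 96.5 in p65KO. Next came 128277517 (82.7 in WT, 58.4 in p65KO) and 128291546 (65.2 and 62.4), both in the other group. Of the first 4 summits 3 had partners, all with the higher score in WT, and of the other 11 there were 10, 7 of them with the higher score in WT. Over all pairs of the lists the p65KO score was the higher at 42.2%. The counts by group are small, and this division too was made after the values were seen.

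One Bcl2l11 pair went far in the other direction. The summit 128283712 scored 47.0 in WT, rank 1240, and its partner 17 bp away scored 105.1 in p65KO, rank 213 and the highest p65KO score of the window. The difference of 58.1 was exceeded or equalled by 5 of the 3625 pairs of the lists, this one included, and the ratio of 2.24-fold by 37 of them (1.02%). The most negative difference of the 4 windows was also at Bcl2l11. It was at 128259522, with 48.1 in WT and 16.0 in p65KO, a difference of −32.1 or 3.01-fold. A difference as low was found at 198 pairs of the lists (5.46%), and a log ratio as low at 47 (1.30%).

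More Bcl2l11 pairs were lower in p65KO by over 1.5-fold, namely 128275237 (64.0 in WT, 33.3 in p65KO), 128218185 (43.5 and 19.6), 127913738 (48.5 and 26.7) and 128193668 (46.9 and 30.2). Higher in p65KO, besides the pair already named, were 128203680 (25.2 in WT, 42.4 in p65KO) and, by little, the weak pair 128254934 (14.7 and 16.0). The pairs 128227304 (55.4 and 51.7) and 127982715 (28.6 and 24.0) were close. The unpartnered WT summits were 127920552 (27.1), 6837 bp from the nearest p65KO summit, and 128214862 (13.8).

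The Bcl2l11 window cut through a longer series. A WT summit at 127898866 (29.5) and its p65KO counterpart at 127898889 (29.0) lay 1.13 and 1.11 kb before the window's start, and each list had 2 more summits within 50 kb after its end. The first of those was 128324530 in WT (15.3) and 128324556 in p65KO (13.6), about as weak as the weakest pair inside.

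**Figure D4:**
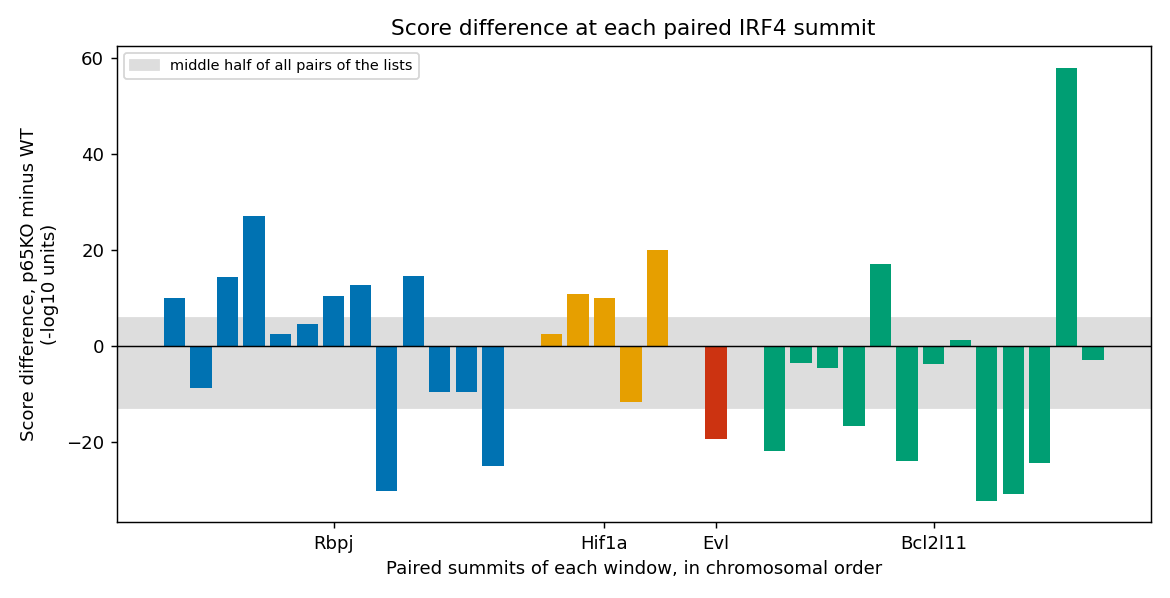
Score difference, p65KO minus WT (−log10 units), at each of the 32 paired summits, in chromosomal order within each window, with the interquartile range of all 3625 pairs in grey (−12.8 to 5.97). Bars above 0 dominate the first part of Rbpj and Hif1a, bars below 0 dominate Bcl2l11, and 1 Bcl2l11 bar reaches 58.1.

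Neighbouring summits could differ in opposite directions, so that their order of strength differed between the genotypes. Among neighbouring pairs no farther apart than the stitching distance this was so for 5 of 16 in the windows (31.3%), against 22.9% of the 423 such neighbours in the whole lists. With so few neighbours, the 5 lay near that background. In the Bcl2l11 window 3 of 6 differed in order. There 128277517 outscored 128283712, 6.20 kb away, by 82.7 to 47.0 in WT, and was outscored by 105.1 to 58.4 in p65KO. On its other side 128283712 also differed in order with 128291546, so these cases share 1 summit and are not separate. At Rbpj the order differed for 1 of 8, the pair 53934521 and 53937844, and at Hif1a for 1 of 2, the pair 75005771 and 75014444. Of all 32 pairs, 11 had a difference above the interquartile range of all pairs and 9 below it, where a quartile on each side, or 8 pairs, is the background by construction.

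No p65 summit lay in any of the windows. None of the 44 WT IRF4 summits had a p65 summit within 200 bp, against 3.04% of the 5533 WT summits on placed chromosomes, a share at which 44 summits correspond to 1.34. A count of 0 is thus close to the background. The nearest p65 summit was 160 kb from a WT summit of Bcl2l11 (127753618 on chromosome 2, p65 score 5.76) and 238 kb from one of Hif1a (74705951 on chromosome 12, score 7.50). For Evl it was 2519 kb away and for Rbpj 16734 kb, where the median over all placed WT summits was 2875 kb. Because p65 was mapped after 30 min of another stimulus and at a looser cut-off of q = 0.05 against 1e-06 for IRF4, these distances say nothing of RelA at the time IRF4 was mapped.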

How the data were processed

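Summit lists of 3 groups (7 samples) were used. Per the submitters' processing notes, MACS2 2.1.0, Subread and featureCounts were used with build mm9; their settings are not stated. The authors deposited for each summit a −log10 score; whether of p or q is not stated. The peak names carry q cut-offs of 1e-06 (IRF4) and 0.05 (p65) and the words No-Input, so no input library entered the calls, and antibody-independent signal was not subtracted. How samples were pooled is not stated. The lists give no read counts, so depth is unknown, and no interval covers the variation between samples.

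Members were all summits inside the 4 windows. Members, windows and comparisons were chosen with earlier results of these data known. Partners were mutual nearest summits within 200 bp. Ranks, deciles of score and clusters were computed on whole lists, and the shares over whole lists serve as background. No test was run. Named summits were each window's 3 highest in WT, the highest in p65KO, unpartnered summits above the median of the WT list or alone within 1 kb in p65KO, and the extreme differences; the others are given to account for every member. Planned motif and gene-feature searches were not run, since no mm9 genome was used. The order comparison of neighbours, the decile-by-decile background and the splits of the Rbpj and Bcl2l11 windows were added after the values were seen. Matching and clustering were tested on simulated data. The simulated summits for matching stood far apart, so matching among crowded summits was not tested there. Scripts ran under Python 3.11.15 with pandas 2.3.3, numpy 2.4.6, matplotlib 3.10.9 and scipy 1.17.1.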

Additional observations from a re-analysis of the deposited data

How the results depend on the processing

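The partner share was 72.7% (95% Wilson interval 58.2 to 83.7, counting error over summits only). The interval treats the 44 summits as independent, although they share 4 loci. The share ran from 65.5% without the Bcl2l11 window to 82.4% with IRF4 lists of equal length, for which no whole-list share was computed. These values lie inside the interval, but they reuse the same summits of 4 chosen windows. Staying inside it is therefore no independent check. The p65 share was 0 in the 9 alternatives run for it, which did not include equal lists or 1 summit per 500 bp. Matching within 100 bp, 500 bp or 1 kb left both shares and the median difference as they were. Partners could not change there, since pairs lay at most 82 bp apart and unpartnered WT summits at least 1191 bp from a p65KO summit. The median score difference of −3.19 turned to 4.62 without the Bcl2l11 window, the 13 pairs of which lean to WT, and was −1.66 with windows widened by 50 kb. It was −0.81 as a difference of percentiles and −0.05 as a log2 ratio. Over all pairs of the lists the median log2 ratio was −0.11 and the median score difference −2.57. Relative to all pairs, the windows thus lay to the p65KO side by log2 ratio and to the WT side by score difference. Using summits above each list's median score left 28 WT summits in the windows, a median spacing of 14.2 kb and 4 summits in clusters, since fewer summits enter. Without the Rbpj or the Bcl2l11 window 27 or 29 of the 44 WT summits were left. Clusters joined at 5 kb held 7 summits in place of 27. Samples could not be left out, because each list pools its group. No paired analysis was possible because the lists hold no values per sample. Without read depth, a summit missing from a list cannot be told apart from one under its cut-off.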
